A study of Brassica napus with 12 samples.

Results

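The comparison is between a resistant and a susceptible pool of rapeseed (*Brassica napus*) seedlings that had both spent 24 h under water. Its members were all genes with an RPKM (reads per gene, divided by the length of the gene and the size of the library) of at least 1 in at least 3 of the 6 submerged libraries. There were 51569 such genes among the 109614 in the table. The resistant submerged group held 3 libraries and the susceptible submerged group 3, and the untreated resistant and susceptible control groups of 3 libraries each are set beside them where stated. Every library came from whole 1-week-old seedlings with flat cotyledons and a first true leaf, raised on wet paper at 25 °C by day and 22 °C by night with 16 h of light. The submerged ones were fully covered with distilled water. A pool mixed equal amounts of 5 germplasm of 1 class, so germplasm were not measured singly, and a difference between the pools cannot be told apart from a difference between the sets of germplasm chosen. The labels call the 3 replicates of a group biological; nothing says whether the mixtures came from separate sowings.

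Water slows the diffusion of gases, so a covered seedling soon runs short of oxygen and light while the gaseous hormone ethylene builds up in it. Plants are known to answer with fermentation in place of respiration, with use of stored sugar and starch, and with a broad fall in protein synthesis. Rapeseed is an allotetraploid: it carries an A genome, as in *Brassica rapa*, and a C genome, as in *Brassica oleracea*, so most genes exist as an A copy and a C copy. In this species the A and C chromosomes are known to exchange or replace segments at times, and accessions differ in such segments and in which genes they carry. The identifiers in the files name a chromosome and a rank along it, but none of them (0 of 109614) matched the 123214 rows of the RefSeq gene table used here. Genes are therefore given by identifier, without a name, role or sequence, and gene groups by their place in the genome.

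The A genome held 23169 of the members and the C genome 24302, while 1328 sat on unplaced scaffolds and 2770 were transcripts listed as new genes. All 6 submerged libraries reached 1 RPKM for 43810 members, and 4921 members reached it in 4 or 5 libraries. Of the 2838 members that reached it in exactly 3, 1208 did so in the 3 resistant libraries and 437 in the 3 susceptible ones. Such genes enter the list through the pool in which they are high, so that their presence in it is no evidence of a difference. The third-highest value nearest to the limit was 1.000088 RPKM inside and 0.999957 RPKM outside the list.

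In submerged seedlings, 6259 members were higher in the resistant than in the susceptible pool and 2492 were lower (limma on log2(RPKM + 1), Benjamini-Hochberg adjusted p under 0.05). These were 12.1% and 4.83% of the members, against 11.7% and 4.67% of all 57391 genes tested, so the list's shares lie close to the background. Differences of at least 2-fold were called for 1529 higher and 861 lower members. At 4-fold or more there were 174 higher and 107 lower members, at 8-fold or more 35 and 13, and at 16-fold or more 9 and 2. The 3 libraries of each pool did not overlap for 6216 of the higher and 2468 of the lower members called. Without regard to calls, such separation was found for 26.4% of members with the resistant pool above and 12.6% with it below, against 26.5% and 12.3% of all genes tested. As whole seedlings were ground, fewer cells of a type and less RNA per cell cannot be told apart in any of these values.

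The excess of higher over lower members depended on how libraries were scaled. The median log2 difference over all members was 0.08, with quartiles of -0.21 and 0.33. Higher members were 71.5% of all calls on RPKM as deposited, 63.5% after quantile normalization (4467 higher, 2563 lower) and 53.5% after median ratio scaling (4398 higher, 3821 lower). Median ratio scaling set the median difference at -0.025. Counted relative to the median of 0.08, members at least 2-fold apart numbered 1229 higher and 1039 lower. Leaving out single submerged libraries also moved the counts by over 1.5 times, although fewer libraries by themselves lower the power of the test. There were 3418 higher and 1339 lower members without resistant replicate 1, 3826 and 1455 without resistant replicate 2, 3206 and 1390 without resistant replicate 3, and 3482 and 1492 without susceptible replicate 1.

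By log2(RPKM + 1), BnaA03G0292000ZS had the largest excess in the resistant pool among genes that met the naming rule. It stood at 139, 128 and 88.3 RPKM in the resistant submerged libraries, against 0.302, 0 and 0.423 RPKM in the susceptible submerged ones. The naming rule asked for a call and for no overlap between the submerged pools, so this separation is no further evidence. The gene also stayed under 1 RPKM in every susceptible submerged library and so entered the list through the resistant pool alone. The log2 difference was 6.58 ± 0.50 (SE; limma adjusted p = 2.25e-05). BnaA02G0084200ZS had 87.9, 79.7 and 96.3 RPKM in the resistant submerged libraries, against 0.155, 0 and 2.123 RPKM in the susceptible submerged libraries. Its log2 difference was 5.85 ± 0.32 (SE; limma adjusted p = 2.14e-06). Neither gene exceeded 0.172 RPKM in any susceptible control, whereas the resistant controls held 54.7, 364 and 151 RPKM of the first and 175, 185 and 174 RPKM of the second. For these genes the pools thus stood apart in the same direction with and without water.

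By the same measure BnaC09G0558200ZS had the largest deficit, an order that turned with a pseudocount of 0.1, where it was at -6.91 and BnaA10G0189100ZS at -7.38. It was at 0.521, 0.414 and 0.854 RPKM in the resistant submerged libraries, against 61.5, 112 and 76.8 RPKM in the susceptible submerged ones, a log2 difference of -5.69 ± 0.43 (SE; limma adjusted p = 2.11e-05). In controls it was at 0.952, 1.19 and 1.05 RPKM in the resistant and at 18.7, 21.6 and 4.54 RPKM in the susceptible pool. The low level in the resistant pool was thus present without water, and the change of the difference with submergence was not called (log2 -2.98 ± 0.60, SE; limma adjusted p = 0.0762). BnaA10G0189100ZS was listed at 0 in the 3 resistant submerged libraries, against 22.2, 25.6 and 7.91 RPKM in the susceptible submerged ones (limma adjusted p = 2.84e-05). The resistant controls held 0.758, 0.241 and 0.221 RPKM of it and the susceptible controls 24.3, 26.3 and 27.1 RPKM. Both genes stayed under 1 RPKM in every resistant submerged library and so entered the list through the susceptible pool alone. Their separation under water was also a condition of the naming rule. These 4 genes were called in the same direction in all 20 alternative analyses. Several of these, such as leaving out a control library, can change the p-value but not the difference itself.

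**Figure D1:**
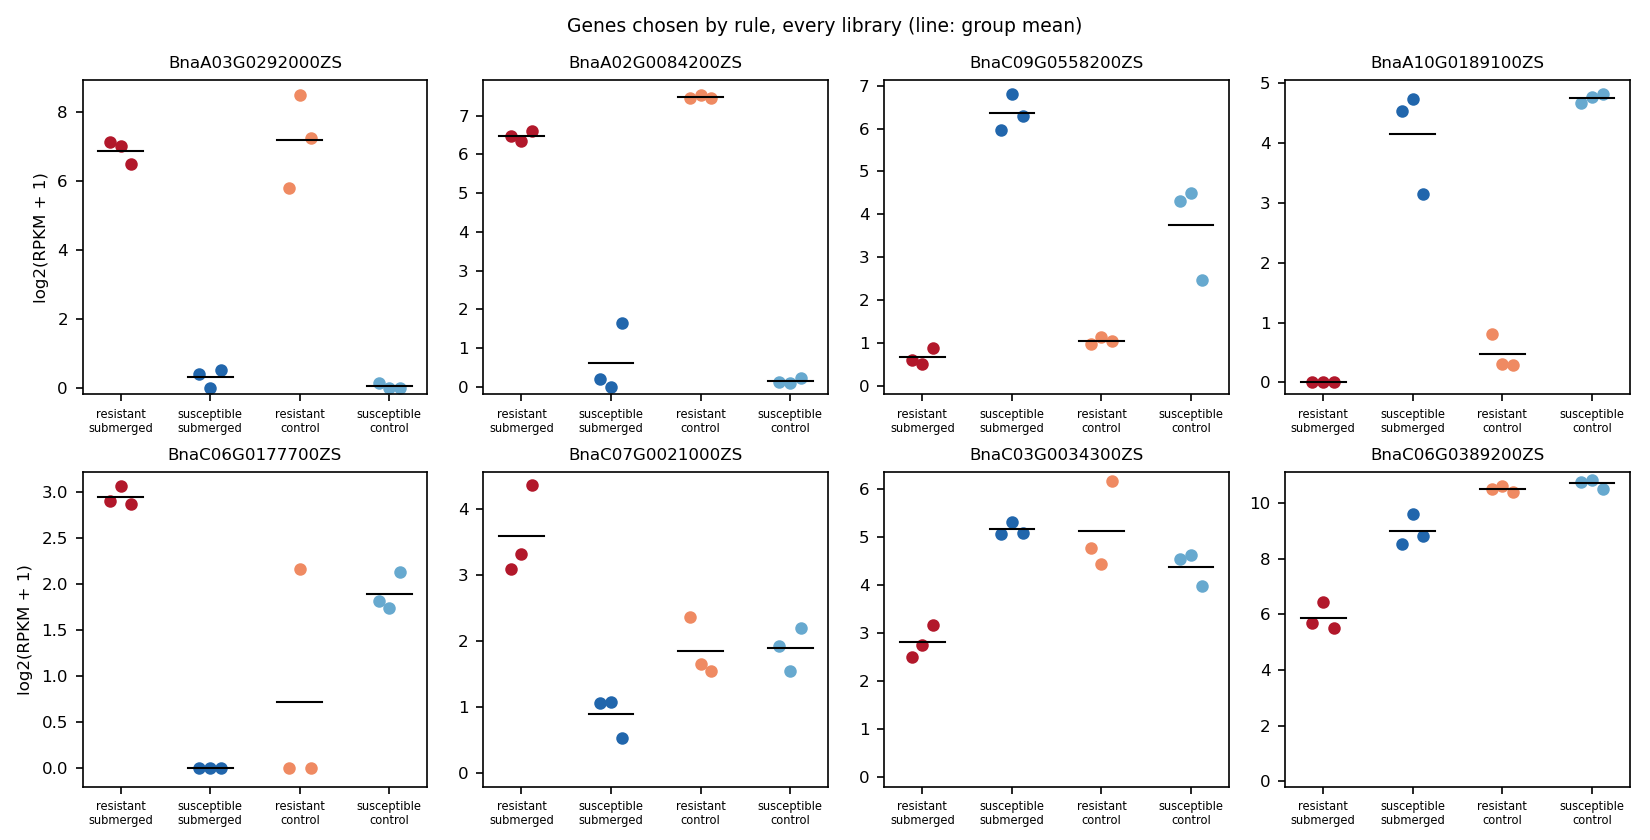
Values of log2(RPKM + 1), on the vertical axis, in every library of 8 genes chosen by rule, with the 4 groups on the horizontal axis, points for libraries and lines for group means. The top row shows the largest differences between the submerged pools, such as BnaA03G0292000ZS at 88.3 to 139 RPKM in resistant submerged libraries, and the bottom row genes whose pool difference changed with submergence.

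The direction of the calls varied with the level of expression. Among 9479 members with a mean under 2 RPKM over the submerged libraries, 15.6% were above and 4.34% below the susceptible pool by call. Between 10 and 30 RPKM the shares were 9.52% and 5.05%, and from 30 to 100 RPKM they were 8.25% and 7.96%. Among the 1143 members at 100 RPKM or more, 8.49% were higher and 10.6% lower, which is 97 and 121 genes. Among members that entered the list through 1 pool only, 913 of the 1208 resistant and 323 of the 437 susceptible ones were called. Such genes lay under 1 RPKM in the other pool but could have any level above that in their own. BnaA03G0292000ZS, at 88.3 to 139 RPKM in the resistant submerged libraries, is 1 of them. They were not removed from the classes, and how many fall under 2 RPKM was not counted. The shares in any class, the weakest included, can thus follow in part from how the list was made. The median log2 difference went along with the level, at 0.146 in the lowest, 0.0066 in the 10 to 30 RPKM and -0.055 in the highest class. The estimated sequencing depth also differed between the pools. From the steps between low values, the resistant submerged libraries had 0.9, 0.892 and 0.936 of the depth of the deepest of the 12 libraries, and the susceptible submerged ones at 0.737, 0.823 and 0.843. The part of depth in the shares of weak genes was not tested.

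**Figure D2:**
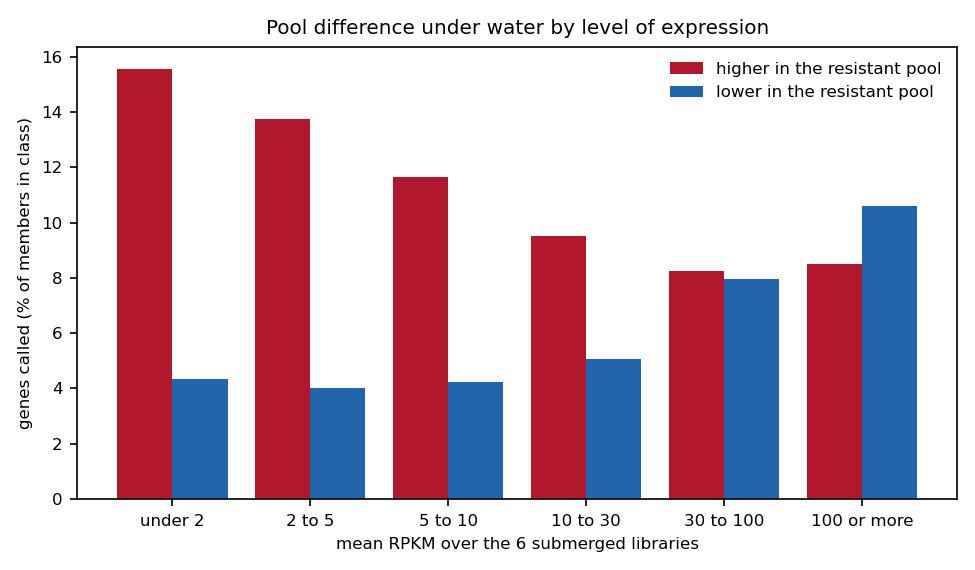
Percentage of members called higher (red) or lower (blue) in the resistant pool under water, on the vertical axis, in 6 classes of mean RPKM on the horizontal axis. The share of higher members is largest under 2 RPKM, 15.6%, and the share of lower members is largest at 100 RPKM or more, 10.6%. Members that entered the list through a single pool are included.

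Library-wide values are given next. Members at 1 RPKM or more numbered 49461, 50010 and 49628 in the resistant submerged libraries, against 47976, 48000 and 48637 in the susceptible ones. The limit of 1 RPKM also chose the members, 1208 of them through the 3 resistant and 437 through the 3 susceptible libraries alone, so this count is a description and supports no difference. Members at 100 RPKM or more numbered 1100, 1088 and 1115 in the resistant submerged libraries, against 1171, 1261 and 1182 in the susceptible ones. The pools did not overlap in the count at 100 RPKM, and the mean difference was -103.67 genes (2-sided exact permutation p = 0.1, the smallest that 3 against 3 libraries can give; 0.2 after Benjamini-Hochberg adjustment over 6 measures), which did not pass the threshold. The median RPKM of members was 5.53, 5.67 and 5.62 in the resistant submerged libraries, against 5.26, 5.13 and 5.52 in the susceptible ones (exact permutation p = 0.1, adjusted p = 0.2), but after median ratio scaling the difference had the opposite sign, -0.193 in place of 0.306. The number of members at 10 RPKM or more (difference 222.33, exact permutation p = 0.6), the mean log2 level of C members minus that of A members (0.026, exact permutation p = 0.7) and the share of all RPKM in new genes (-0.308 percentage points, exact permutation p = 0.2) overlapped between the pools. Replicates were closer to each other in the resistant pool, with a median SD of log2 values over members of 0.147, against 0.198 in the susceptible submerged pool. It was 0.173 in resistant and 0.202 in susceptible controls.

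Calls were similar in number on the A and C genomes. The resistant pool was higher for 13.1% and lower for 4.76% of A members, and for 11.3% and 4.68% of C members. New genes held more differences of 2-fold or more, 10.6% of 2770, against 4.44% of A and 4.27% of C members. These were 190 higher and 104 lower new genes. Scaffold members were seldom called, 45 higher and 23 lower of 1328, although their median log2 difference was -0.479. Their median level was 2.32, 3.46 and 2.24 RPKM in the resistant submerged libraries, against 5.03, 2.34 and 3.81 RPKM in the susceptible ones. The pools thus overlapped, and the spread within each was as wide as the gap between them.

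By chromosome, C02 and A03 had the highest shares of members above the susceptible pool, 18.0% and 18.0%, that is 413 of 2292 and 559 of 3111. C02 led more clearly among differences of at least 2-fold: 7.29% of its members were higher to that extent, followed by A03 with 4.02%, C09 with 3.47% and A04 with 3.47%, against 1.49% on C03. A02 had the highest share of lower members, 8.14%, followed by A04 with 6.73%, and A05 the lowest, 2.52%. A05 also held 17 of 36 windows that were unstable within groups, where 8 of 1800 members were called lower. Its share without them was not counted. C08 had the lowest share of higher members, 8.37%. Chromosome-wide means, taken relative to the library median, differed by far less than the genes did. No chromosome of the 19 passed the threshold (limma, adjusted over chromosomes), and 4 had an unadjusted p under 0.05. A03 stood 0.080 ± 0.022 log2 above the susceptible pool (SE; limma adjusted p = 0.063) and C02 0.0999 ± 0.0323 (SE; limma adjusted p = 0.088), in both cases without overlap of the pools. The pools did not overlap on C09 either, with the resistant pool above by 0.027 (limma adjusted p = 0.365). The same held with the resistant pool below on A06, C01 and C08, at -0.042, -0.038 and -0.039 (limma adjusted p = 0.165 for each). A05 was at -0.182 ± 0.094 and A09 at -0.119 ± 0.045 (SE; limma adjusted p = 0.165 and 0.131). Calls at this scale turned on the setting: A03 and C02 passed with only the submerged libraries (limma adjusted p = 0.0476 for each). After the 36 unstable windows described next were left out, A03, C02 and the rest of A05 were called higher. Leaving out susceptible submerged replicate 2 gave 6 calls (A03, A07, A10 and C02 higher, A05 and A09 lower). Leaving out susceptible control replicate 2 or 3 gave 2 (A03 and C02).

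To see where along a chromosome the pools differed, members were averaged in 948 windows of 50 neighbours, relative to the library median, and each window was tested over the libraries. In 36 windows with 1800 members, the mean varied within groups with an SD of 0.389 to 0.639 log2, against 0.257 at most in all other windows and a median of 0.054. They lay on A05 (17 windows, members 951 to 1800), A09 (12 windows, members 1401 to 2000), A06 (4), A01 (2) and C08 (1), and moved together from library to library. Their mean relative level was -0.069, 0.768 and -0.167 log2 in the resistant submerged libraries, against 1.48, 0.205 and 1.03 in the susceptible ones. Resistant replicate 2 lay above susceptible replicate 2, so the pools overlapped. None of these 36 windows was called, and 7 of their members were called higher and 8 lower. Without them, the rest of A05 was called higher in the resistant pool, whereas A05 with all its members was at -0.182 log2 and not called. The windows to leave out were chosen after seeing the data.

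The resistant pool was higher in 121 of the 948 windows under water and lower in 71 (limma adjusted p under 0.05), which is 12.8% and 7.49%. The median difference of called windows was 0.202 log2 above and -0.186 below. On A chromosomes 82 of 462 windows were higher and 35 lower, and on C chromosomes 39 of 486 were higher and 36 lower. A03 had 17 higher windows of 62, C02 12 of 46 and A07 10 of 41, whereas C07 had none of 52 and C03 and C08 had 1 each. The counts were 80 higher and 45 lower without resistant submerged replicate 1, 75 higher without resistant submerged replicate 3 and 76 higher without susceptible submerged replicate 1. Replacing the mean of a window by its median left 75 higher and 32 lower windows, and no centring on the library median gave 343 and 29.

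**Figure D3:**
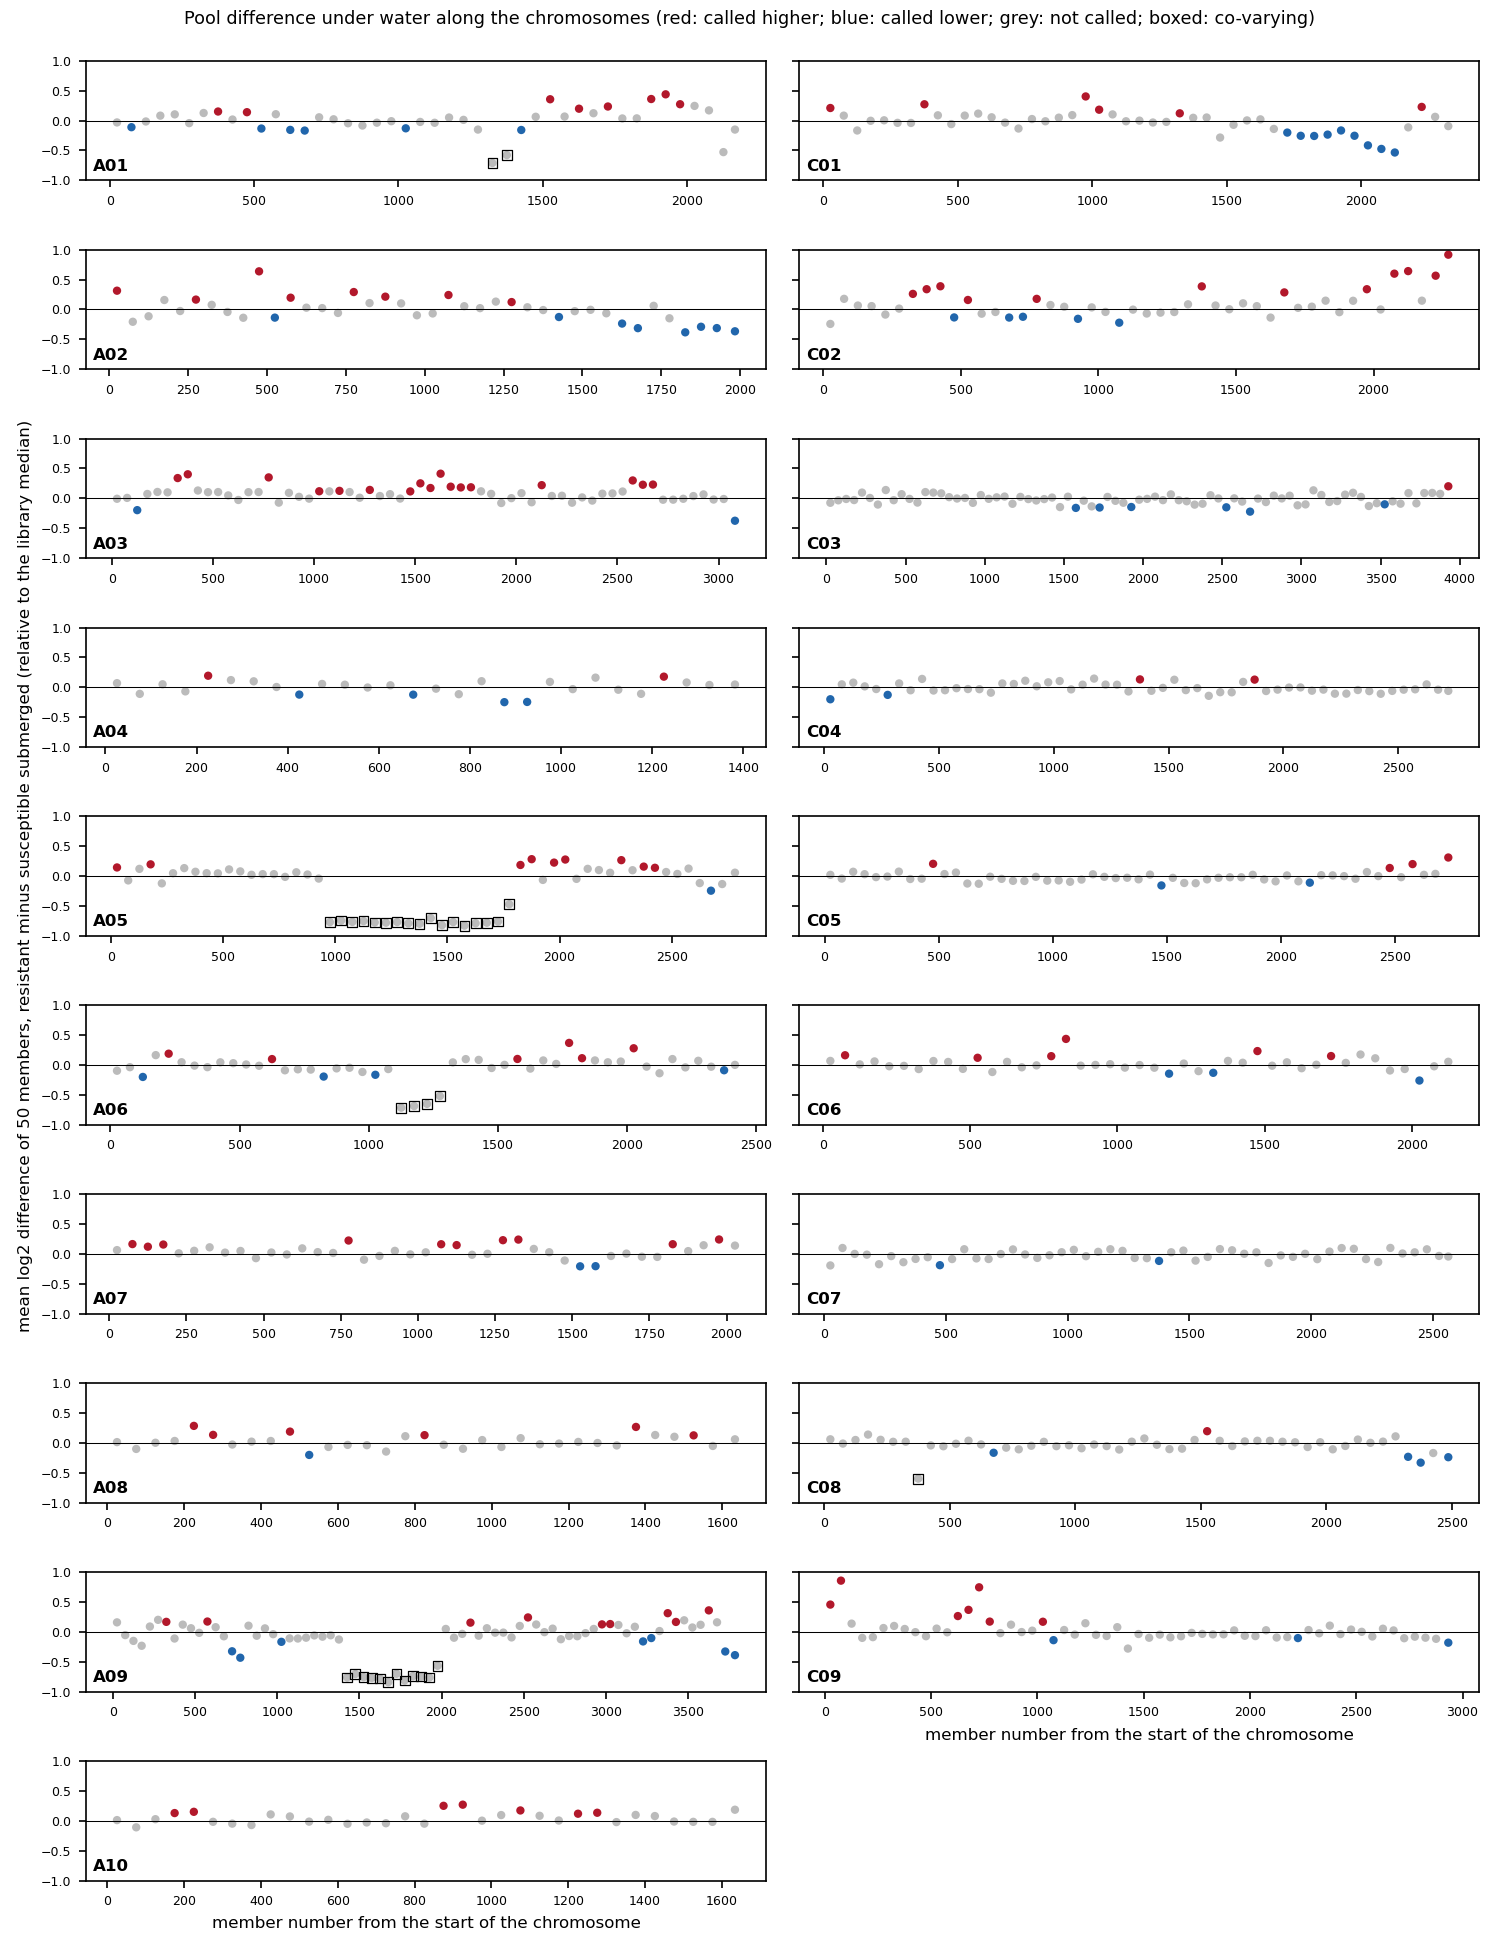
Mean log2 difference between the submerged pools, resistant minus susceptible, of windows of 50 members (vertical axis, relative to the library median) by member number along each of the 19 chromosomes (horizontal axis). Red and blue points are the 121 higher and 71 lower windows called, grey points were not called, and boxes mark the 36 windows that varied within groups, most of them on A05 and A09; 4 of the last 5 windows of C02 lie above 0.5.

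The largest difference of any called window was at the end of C02, in the last 42 members (2251 to 2292). Its relative level was 0.330, 0.312 and 0.386 log2 in the resistant submerged libraries, against -0.592, -0.831 and -0.297 in the susceptible submerged ones. The difference of 0.916 ± 0.115 (SE; limma adjusted p = 0.000404) did not come from a few genes: all 42 members lay above 0, and 31 were called higher. Of all members in the list, 58.2% lay above 0. Differences of single genes, unlike those of windows, were not taken relative to the library median. In this stretch 21 neighbouring members in a row (2271 to 2291) were called higher, the longest such run in the genome. Members 51 to 100 of C09 followed, at 0.660, 0.847 and 0.717 log2 in the resistant submerged libraries, against -0.271, -0.441 and 0.361 in the susceptible ones (difference 0.858 ± 0.161, SE; limma adjusted p = 0.00404). Of these 50 members, 46 lay above 0 and 33 were called higher, although susceptible replicate 3 came closer to the resistant pool than the other susceptible libraries did.

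The other leading windows were members 701 to 750 of C09, members 2101 to 2150 of C02 and members 451 to 500 of A02. The C09 window differed by 0.746 ± 0.124 log2, with 36 members called higher and none lower, and the C02 window by 0.641 ± 0.084, with 34 called higher and 1 lower (SE; limma adjusted p = 0.00219 and 0.000496). The A02 window differed by 0.637 ± 0.065 (SE; limma adjusted p = 0.000185). Here only 33 of 50 members lay above 0, not far from the 58.2% of all members. The median gene differed by 0.217, so fewer and larger differences made up the mean. BnaA02G0084200ZS, described above, is member 476 of A02 and lies in this window.

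Windows lower in the resistant pool were led by 3 adjacent ones on C01. Members 2101 to 2150 of C01 stood at -0.368, -0.294 and -0.160 log2 in the resistant submerged libraries, against 0.217, 0.366 and 0.202 in the susceptible ones, a difference of -0.535 ± 0.071 (SE; limma adjusted p = 0.000508). Of these 50 members, 20 were called lower and 2 higher. The 2 windows before it differed by -0.476 ± 0.074 and -0.416 ± 0.081 (SE; limma adjusted p = 0.00142 and 0.00499). Members 751 to 800 of A09 differed by -0.432 ± 0.051, with 15 called lower and none higher, and the last 68 members of A09 by -0.389 ± 0.082, with 13 called lower and none higher (SE; limma adjusted p = 0.000375 and 0.00793). Each of these 10 windows kept its direction in all 18 alternatives with the same windows, and only members 2001 to 2050 of C01 lost the call in 1 of them, with medians in place of means. Several of these alternatives, such as leaving out a control library, can change the p-value but not the difference itself.

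Called windows often adjoined. Stretches with at least 3 called windows in a row, allowing 1 uncalled window of the same sign between, formed 9 blocks higher and 3 blocks lower in the resistant pool. The blocks were picked from the calls, so their values are a description. The 9 higher blocks held 3.88% of placed members and 581 of the 5790 placed members called higher. The 3 lower blocks held 1.86% of placed members and 168 of the 2240 called lower. Of placed members called higher, 22.3% were followed by another one called higher, against 12.2% of all placed members; of those called lower, 12.1% were followed by another, against 4.72%.

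The end of C02, members 2051 to 2292, had the widest gap of all blocks. It stood at 0.221, 0.150 and 0.231 log2 in the resistant submerged libraries, against -0.367, -0.539 and -0.179 in the susceptible ones. The block held 128 members called higher and 5 called lower of 242, with a median gene difference of 0.742. At the end of A02, members 1801 to 2015, the order was the reverse: 0.180, 0.114 and 0.165 log2 in the resistant submerged libraries, against 0.483, 0.611 and 0.383 in the susceptible ones. Here 58 members were called lower and 11 higher of 215. The A and C chromosomes of the same number had opposite blocks in 1 more case. Members 1851 to 2000 of A01 stood at 0.523, 0.410 and 0.395 log2 in the resistant submerged libraries, against 0.053, 0.057 and 0.148 in the susceptible ones, with 64 members called higher and 1 lower of 150. Members 1701 to 2150 of C01 stood at -0.087, -0.043 and -0.025 log2 in the resistant submerged libraries, against 0.236, 0.295 and 0.249 in the susceptible ones, with 79 called lower and 12 higher of 450. Whether the genes of these facing blocks are A and C copies of each other was not tested.

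The remaining blocks had narrower gaps. Members 601 to 800 of C09 averaged 0.303 ± 0.030 log2 in the resistant and -0.085 ± 0.135 in the susceptible submerged pool, and members 301 to 450 of C02 averaged 0.184 ± 0.018 and -0.145 ± 0.091 (SD, n = 3 each). On A03, members 1451 to 1800 formed the longest higher block, 7 windows with 101 of 350 members called higher and 9 lower, at 0.264 ± 0.035 in the resistant and 0.047 ± 0.023 in the susceptible submerged pool (SD, n = 3 each). BnaA03G0292000ZS is member 1628 of A03 and lies within it. The last 220 members of C08 were lower, at -0.043 ± 0.105 in the resistant and 0.198 ± 0.048 in the susceptible submerged pool (SD, n = 3 each). Further higher blocks lay on A03 (members 2551 to 2700), A01 (1501 to 1750), A05 (2251 to 2450) and A07 (51 to 200), with gaps of 0.253, 0.195, 0.168 and 0.150 log2. In all 12 blocks the 3 resistant and the 3 susceptible submerged libraries did not overlap. The blocks were chosen by calls on these same libraries, which favours such separation, so it is no further evidence.

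**Figure D4:**
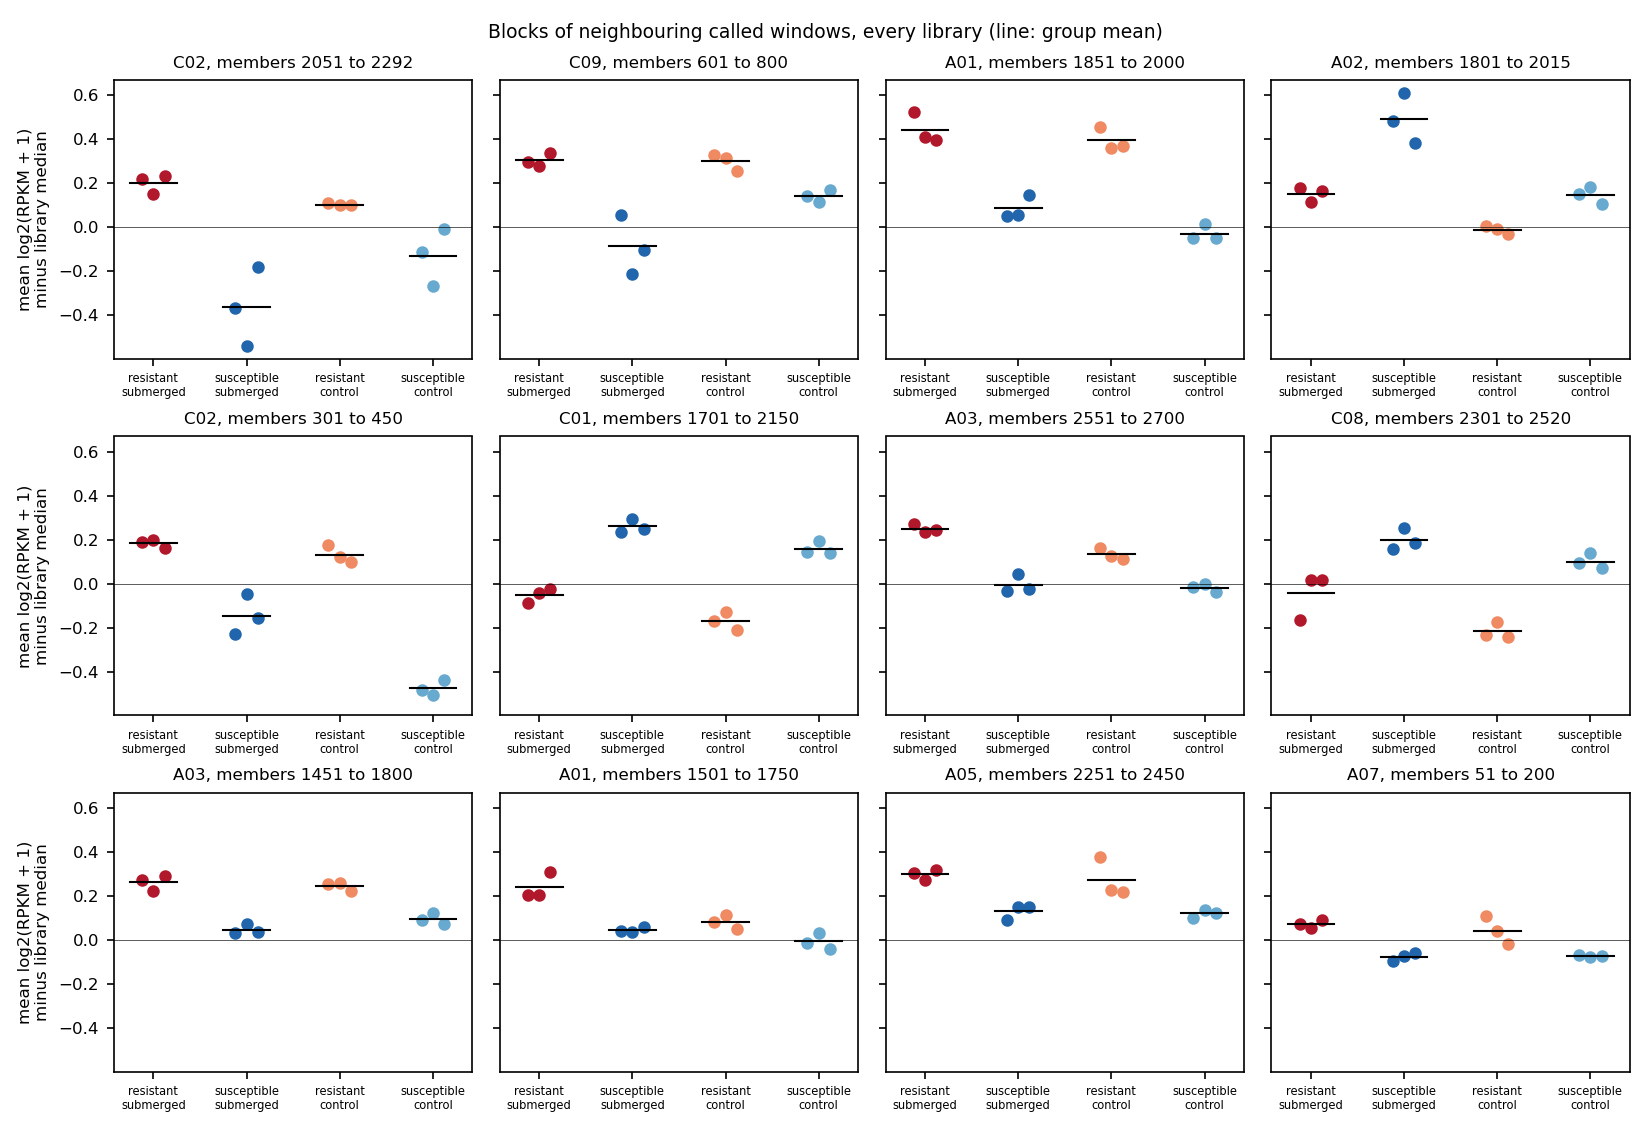
Mean log2(RPKM + 1) minus the library median, on the vertical axis, of the 12 blocks of neighbouring called windows in every library, with the 4 groups on the horizontal axis, points for libraries and lines for group means. In the C02 block of members 2051 to 2292 the resistant submerged libraries sit at 0.150 to 0.231 and the susceptible submerged ones at -0.539 to -0.179.

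The pools were also compared in controls, whose libraries do not enter the difference between the submerged means. The same fit gave both comparisons a shared estimate of the spread, so their calls are not independent. Leaving out resistant control replicate 3 alone gave 5545 higher and 2168 lower members under water. Of members higher in the resistant pool under water, 41.8% were called higher in controls too, and 48.1% of those higher in controls were called higher under water. For lower members the shares were 40.4% and 40.2%. The larger the difference under water, the more often it was called in controls: 61.7% of members at least 2-fold higher, 84.5% of those at least 4-fold higher and 97.1% of those at least 8-fold higher. For members lower in the resistant pool the shares were 54.5%, 72.0% and 76.9%. Calls in controls were made for 10.6% of all members on the higher and 4.86% on the lower side, against 10.9% and 5.02% of all genes tested. Members at least 2-fold higher under water had a median log2 difference of 1.28 under water and 0.93 in controls. Choosing members by their difference under water favours a larger value there, so these medians do not show a change with submergence. Opposite calls were made for 19 members that were higher under water and 24 that were lower.

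Windows gave a like picture. Of the 121 higher windows, 109 lay above 0 in controls and 70 were called higher there, which is 57.9% of them and 53.4% of the 131 windows higher in controls. Of the 71 lower windows, 70 lay below 0 in controls and 49 were called lower, 69.0% of them and 30.6% of the 160 windows lower in controls. Across windows the differences under water and in controls had Pearson's r = 0.74 and Spearman's rho = 0.67, and 0.69 and 0.63 without the unstable windows. The windows share libraries within each comparison and are not independent, so these values only describe the 12 libraries. The gaps of blocks under water and in controls were not tested against each other, and choosing the blocks by calls under water favours wider gaps there. None of the windows in a block passed the test of the change with submergence given next (lowest limma adjusted p = 0.0571). The gap was 0.562 log2 under water and 0.232 in controls at the end of C02, 0.388 and 0.158 for members 601 to 800 of C09, and -0.340 and -0.157 at the end of A02. It was 0.329 under water and 0.605 in controls for members 301 to 450 of C02, and nearly equal on C01, -0.311 and -0.330.

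**Figure D5:**
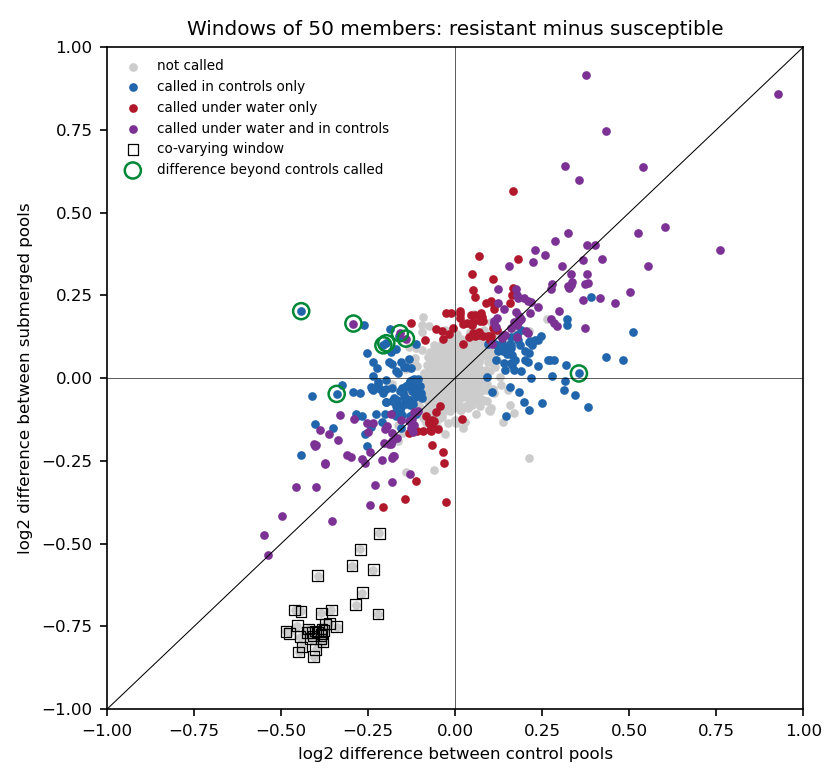
Mean log2 difference between the submerged pools (vertical axis) against that between the control pools (horizontal axis), resistant minus susceptible, for 948 windows of 50 members, with a diagonal line of equality. Colours give the calls, boxes the 36 unstable windows, and rings the 8 windows whose difference changed with submergence; Pearson's r is 0.74.

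A pool difference that itself changed with submergence was called for few features. The test of that change, the submerged minus the control difference, passed for 96 members on the positive and 68 on the negative side (limma adjusted p under 0.05), 0.186% and 0.132%, against 0.192% and 0.141% of all genes tested; 6702 members had an unadjusted p under 0.05. Of 3640 members called higher under water and not in controls, 50 passed this test, as did 35 of 1484 called lower under water and not in controls. For the others a difference limited to submerged seedlings is not shown. The counts varied widely, with 6 to 185 positive and 6 to 117 negative members on leaving out each of the 12 libraries in turn. They were lowest without susceptible control replicate 1 and highest without susceptible control replicate 2. Leaving out any library also lowers the power of the test, so a fall need not be particular to that library. Without resistant control replicate 3 there were 12 and 10, and without resistant submerged replicate 1 there were 10 and 10.

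BnaC06G0389200ZS was the most abundant of the 4 genes named from this test. It stood at 50.5, 85.5 and 44.5 RPKM in the resistant submerged libraries, against 371, 788 and 458 RPKM in the susceptible submerged ones. In controls it was at 1478, 1594 and 1369 RPKM in the resistant and 1760, 1850 and 1483 RPKM in the susceptible pool. Submerged libraries of both pools were below their controls, and the resistant ones lay lowest. The log2 difference was -3.13 ± 0.29 under water (SE; limma adjusted p = 9.80e-05) and -0.19 ± 0.29 in controls, and its change was -2.93 ± 0.41 (SE; limma adjusted p = 0.0226). BnaC03G0034300ZS was at 4.66, 5.76 and 8.05 RPKM in the resistant submerged libraries, against 32.8, 39.2 and 33.1 RPKM in the susceptible ones, with 26.3, 20.6 and 71.2 RPKM in resistant and 22.3, 23.8 and 14.7 RPKM in susceptible controls. The control pools overlapped, and the submerged pools did not, which the choice of genes called under water and not in controls favours.

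On the positive side, BnaC07G0021000ZS was at 7.55, 9.02 and 19.7 RPKM in the resistant submerged libraries, against 1.102, 1.119 and 0.447 RPKM in the susceptible ones. Its controls overlapped, at 4.16, 2.17 and 1.92 RPKM in the resistant and 2.81, 1.94 and 3.58 RPKM in the susceptible pool, and the change was 2.74 ± 0.47 log2 (SE; limma adjusted p = 0.0381). BnaC06G0177700ZS was at 6.46, 7.33 and 6.31 RPKM in the resistant submerged libraries and listed at 0 in the 3 susceptible ones, so that it entered the list through the resistant pool alone. In controls it was at 0, 3.49 and 0 RPKM in the resistant and 2.51, 2.33 and 3.37 RPKM in the susceptible pool. All 4 genes were called under water in all alternatives that included them. The change with submergence lost its call in 11 of 18 alternatives for BnaC06G0177700ZS, in 12 of 18 for BnaC07G0021000ZS, in 12 of 19 for BnaC03G0034300ZS and in 6 of 19 for BnaC06G0389200ZS.

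Among windows, the change passed for 7 with a positive and 1 with a negative sign. In the 7 the resistant pool was called below the susceptible one in controls, and under water 3 of them were called above it: members 251 to 300 of A02, and members 1201 to 1250 and 1251 to 1300 of A10. The A02 window stood at 0.204, 0.133 and 0.205 log2 in the resistant submerged libraries, against 0.049, 0.026 and -0.027 in the susceptible ones. In controls it stood at 0.0068, -0.108 and -0.128 in the resistant and 0.180, 0.219 and 0.249 in the susceptible pool. Members 251 to 300 of C02 went the other way: the difference was 0.014 ± 0.044 log2 under water and 0.355 ± 0.044 in controls (SE). The call of the change was lost in 11 of 17 alternatives for members 1751 to 1800 of A07 and 1201 to 1250 of A10, in 10 for the C02 window, in 9 for members 1251 to 1300 of A10 and in 7 for members 551 to 600 of A01. It was lost in 5 for members 1351 to 1400 of A10, in 2 for members 251 to 300 of A09 and in 1 for the A02 window. With medians of members in place of means, 7 of the 8 windows lost it, all but members 1351 to 1400 of A10, and the change of members 1251 to 1300 of A10 was 0.126 in place of 0.294 (limma adjusted p = 0.641). Leaving out each library in turn gave 1 to 21 positive and 0 to 12 negative windows. There were 21 and 12 without susceptible submerged replicate 1, 16 and 11 without susceptible control replicate 2, and 18 and 1 without resistant submerged replicate 2. Without susceptible control replicate 1 there were 1 and 0.

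Some genes were listed at 0 in every submerged library of 1 pool and averaged at least 1 RPKM in the other. For 85 of these the resistant pool had a median of 2.46 and a maximum of 16.0 RPKM, and the susceptible pool was at 0. For another 42 the resistant pool was at 0, and the susceptible pool had a median of 2.91 and a maximum of 18.6 RPKM. The class is defined by its values, so no test was made, and an RPKM of 0 can be a failed estimate. In the control libraries, which did not define the class, 80 of the 85 genes averaged at least 1 RPKM in resistant controls and 63 were at 0 in all 3 susceptible controls. Of the 42 genes, 36 were at 0 in all 3 resistant controls and 35 averaged at least 1 RPKM in susceptible controls. The shares of all members with such control values were not counted. C02 held 14 of the 85 genes and 4 of the 42, and new genes made up 23 and 15. Of all 51569 members, 2292 lay on C02 and 2770 were new genes, and an excess in the class was not tested. With a mean of at least 5 RPKM in the other pool, 18 and 8 genes remained in the class.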

How the data were processed

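The 12 libraries came from polyadenylated RNA of young seedlings, sequenced in pairs on an Illumina instrument, per the labels' protocols. The authors deposited RPKM values per gene, with 1 column per library. HISAT2 and StringTie appear in the submitters' processing notes; the sources used here give neither versions, settings nor a build. Members, lists and tests were chosen with earlier results of these data known. A gene was tested if 3 of the 12 libraries or more reached 1 RPKM. Values of log2(RPKM + 1) were fitted in R 4.3.3 by limma 3.58.1 as 4 group means with a trended prior variance (8 residual and 3.35 prior degrees of freedom). On this scale a fold change of weak genes is understated. All p-values are 2-sided, with Benjamini-Hochberg adjustment over the genes, windows or chromosomes tested and a threshold of 0.05. Means of windows and chromosomes, minus the library median over placed members, were fitted without a trend; a last piece under 25 members joined the window before it. Gene order was read from the identifiers. Single values per library used exact permutation tests. The p-values measure only the spread between these mixtures.

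Named genes were the 2 largest and 2 smallest log2 differences among called members with no overlap between the submerged pools and a mean of at least 5 RPKM in the higher pool. For the change with submergence the same rule was applied to members called under water and not in controls. Gene lists drawn up for this work (such as fermentation, ethylene and light harvesting) were not tested, since no identifier was paired with a name. Relative depth was read from the low values, where 1 read more or less is a visible step. For each pair of libraries it was taken where the ratios of low values piled up most. This peak held as little as 0.929% of the ratios, so depth is an estimate. Of 66 pairs of libraries, 65 agreed within 0.02 log2. As the absolute depth is unknown, counting intervals were not computed. Where A and C copies are nearly identical, reads can be split between them or lost, and single copies are then uncertain. No 2 libraries were alike: at least 99.5% of tested genes differed in each pair. The fits were also run on simulated data in which each gene varied independently. Such data cannot check false calls of windows whose genes move together.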

Additional observations from a re-analysis of the deposited data

Results flagged for a closer look

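The pool difference under water differed from that in controls, by the test of the change itself, in 8 windows and 4 named genes. The change was 0.303 log2 for members 551 to 600 of A01, 0.457 for members 251 to 300 of A02, 0.292 for members 1751 to 1800 of A07 and 0.644 for members 251 to 300 of A09. On A10 it was 0.261 for members 1201 to 1250, 0.294 for members 1251 to 1300 and 0.305 for members 1351 to 1400. It was -0.341 for members 251 to 300 of C02. The adjusted p of these windows ranged from 0.0072 to 0.042 (limma). The call was lost in 5 to 11 of 17 alternatives for 6 of the 8 windows, the exceptions being those on A02 and A09 with 1 and 2. With medians of members, members 1351 to 1400 of A10 alone kept it. Of the genes, the change was 4.11 for BnaC06G0177700ZS, 2.74 for BnaC07G0021000ZS, -3.10 for BnaC03G0034300ZS and -2.93 for BnaC06G0389200ZS.

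By window means the window on A09 showed the largest of these changes; by medians of members it was 0.395 (limma adjusted p = 0.206), below members 1351 to 1400 of A10 at 0.500 and smaller in size than C02 at -0.475. It stood at 0.256, 0.029 and 0.076 log2 in the resistant submerged libraries, against -0.030, -0.075 and -0.139 in the susceptible submerged ones, and at -0.234, -0.395 and -0.310 in the resistant controls, against 0.151, 0.036 and 0.203 in the susceptible ones. In all 8 windows the 3 libraries of each pool did not overlap in controls. The test that chose these windows used the same control libraries, which favours such separation, so it is no further evidence.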

How the results depend on the processing

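No named gene or window that was called changed direction under any alternative that was run. Several alternatives, such as leaving out a control library or adding the replicate block, cannot alter a difference between submerged means. The direction under water was fixed in those. With a pseudocount of 0.1, 2797 members were at least 2-fold higher, 42 had a negative change with submergence, 21 windows had a positive and 4 a negative change, and 4 chromosomes were called. With no filter on low values, 60 members had a positive change. Limiting the test to genes with a mean of at least 5 RPKM, and so to fewer genes, gave 2995 higher and 1454 lower members, 751 and 485 at least 2-fold apart, and 63 positive and 44 negative changes. Median ratio scaling gave 3821 lower members, a difference of -931 members at 10 RPKM or more and of -0.193 in median RPKM; the cause was not tested. Windows of 25 members gave 258 higher and 159 lower windows with 18 positive and 7 negative changes, and windows of 100 gave 71 and 31 with 20 and 3. Without centring there were 343 and 29 windows, 2 and 0 changes, and 14 chromosomes called. With medians there were 75 and 32 windows, 4 and 2 changes, and 1 chromosome called. Without members listed at 0 in 1 pool, 2 windows had a negative change. Fitting only the 6 submerged libraries gave 2 chromosomes. Leaving out the unstable windows, chosen after seeing the data, gave 34 positive and 12 negative changes of windows, 3 chromosomes under water and 1 for the change. With 5 RPKM or more in the other pool, 8 genes were listed at 0 in resistant and 18 in susceptible submerged libraries. Leaving out each of the 12 libraries in turn gave 3206 to 6788 higher and 1339 to 2939 lower members, 1341 to 1711 and 664 to 938 at least 2-fold apart, and 6 to 185 positive and 6 to 117 negative changes. For windows it gave 75 to 132 higher, 45 to 78 lower, 1 to 21 positive and 0 to 12 negative changes, and for chromosomes 0 to 6 calls under water and 0 to 1 for the change. For library values it gave differences of 1340.2 to 1711.7 members at 1 RPKM or more, -73 to 458 at 10, -120.5 to -75.5 at 100, 0.218 to 0.414 in median RPKM, -8.7392e-05 to 0.0538 in C minus A level and -0.471 to -0.223 percentage points in new genes. Same-numbered submerged libraries deviated from their group means with correlations of -0.141, -0.264 and 0.104 over genes, so the numbers were not taken as pairs. With the replicate number as a block there were 5306 higher and 2313 lower members, 19 positive and 16 negative changes of members, and 4 and 0 of windows; the windows on A01, A07 and C02 and members 1201 to 1250 of A10 lost the call. Absolute depth is unknown. By the estimate from low values the resistant submerged libraries were all deeper than the susceptible ones, which limits what can be said of weak genes.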
